A study of Mus musculus with 4 samples.

Results

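The genes described here encode the replication-independent histone variants, together with Slbp, which encodes the protein that binds the stem-loop of replication-dependent histone mRNAs and is not itself a histone. They were chosen by name, as a list of 10 symbols, and 9 of the 10 were found among the 28074 gene symbols of the table. The level of H1f0, the linker histone H1.0, was not analysed here. Of the 9, 8 had a mean of at least 1 FPKM and entered the test, and H1fx did not. FPKM is a value scaled by transcript length and library size, so levels can be set side by side between genes.

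RNA was sequenced from leukaemic spleen cells of 2 mice, numbered 4050 and 4182. Frozen cells were thawed, left for 24 hours in medium with 20% serum, SCF, IL6 and IL3, and divided, so that each mouse gave 1 control sample with vehicle and 1 sample with R848 at 10 µg/ml, both taken after 3 days (n = 2 per group). R848, also called resiquimod, is a small-molecule agonist of the endosomal receptors TLR7 and TLR8, and the stated aim was to find expression changes that go with it in these cells. All 4 samples share one genotype: floxed Dnmt3a (Dnmt3a fl/fl), the internal tandem duplication of Flt3 on both alleles (Flt3 ITD/ITD) and the Mx1Cre transgene, whose Mx1 promoter responds to interferon. The labels also write this genotype as Dnmt3a+/-, and the conflict was not resolved here. Dnmt3a was at 14.5 and 15.7 FPKM in the controls and at 14.4 and 13.0 FPKM with R848 (mice 4050 and 4182), a whole-gene value that does not check the floxed part (log2 difference -0.13, limma adjusted p = 0.843). Flt3, also read as a whole gene, was at 1.57 and 1.93 FPKM in the controls and at 0.331 and 0.0942 FPKM with R848, below the filter of the test.

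The labels call the cells leukaemic splenocytes from acute myeloid leukaemia and name no sorting step. All 8 listed myeloid markers were above 1 FPKM on average, with Mpo, the granule enzyme myeloperoxidase, at 1475 and 1533 FPKM in the controls and 1281 and 1052 FPKM with R848 (log2 difference -0.37, limma adjusted p = 0.476). By limma 0 of the 8 were called, and 1 reached an unadjusted p below 0.05, against 11.5% of all tested genes. With the mouse as a block 3 of the 8 reached it, against 1944 of the 12612 tested genes. In that fit 1 of the 8 rose, against 3.40% of all tested genes. It was Csf1r, the receptor of the macrophage growth factor CSF1. Csf1r was at 68.3 and 52.5 FPKM in the controls and at 110.8 and 82.5 FPKM with R848 (log2 difference 0.67, limma adjusted p = 0.241, and 0.0215 with the block). Markers of other cells also differed with R848. The 6 B cell markers summed to 14.7 and 16.3 FPKM in the controls and to 41.7 and 43.3 FPKM with R848, and 3 of the 5 tested rose by limma. The 6 plasma cell markers found summed to 535.5 and 686.3 FPKM in the controls and to 1285 and 1129 FPKM with R848. That sum understates the 3 of them that rose by limma: Igkc, an immunoglobulin light chain gene, from 4.91 and 2.74 to 601 and 507 FPKM, Igj, the joining chain gene, from 0.406 and 0.464 to 42.2 and 34.1 FPKM, and Mzb1 from 0.365 and 0.102 to 18.1 and 20.8 FPKM. The 7 T cell markers summed to 8.26 and 7.66 against 14.1 and 17.6 FPKM, and the 5 macrophage markers found to 226 and 193 against 323 and 315 FPKM. Of the 5 tested T cell markers 2 rose, and of the macrophage markers Marco and Emr1 rose while Trem2 and Mrc1 fell. Over all 12612 tested genes, 185 rose and 48 fell by limma. Cd3g and Trac were listed at 0 in 1 control each. All 5 erythroid markers found were below the filter of the test. The part of these other cells in the results below was not tested. In a bulk sample, fewer cells of a type and less RNA per cell cannot be told apart.

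Most histone protein is made in S phase from the replication-dependent genes, which have no introns and whose mRNAs end in a stem-loop in place of a poly(A) tail. SLBP binds that stem-loop and is needed for the processing, export and translation of these mRNAs. The variant genes are transcribed through the cell cycle, mostly carry introns, and give polyadenylated mRNAs. Their proteins replace the standard histones outside replication: H2A.Z at promoters and enhancers, H3.3 at active genes and at repeats, H2A.X throughout the genome, where its phosphorylation marks DNA breaks, and macroH2A, with its large globular domain, in repressed chromatin.

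The stem-loop itself was searched in the annotated transcripts (GENCODE M21, GRCm38), after the stop codon and on the transcript strand, by its textbook consensus. Of the 10 listed genes, H2afx alone matched, and 3 (H2afx, H1f0 and H1fx) have no intron in any coding transcript model. Of the 61 replication-dependent histone genes of the table, 59 had a coding transcript, and 54 of these 59 have no intron. Of the 59, 43 had a model reaching at least 60 bases past the stop codon, and 37 of the 43 matched. Hist1h2aj and Hist1h2al are annotated as pseudogenes without a coding transcript and were not searched. The match of H2afx lies at chr9:44335240-44335255 (plus strand), in the 3′ UTR and 46 bases past the stop codon. The H2afx transcript model runs another 822 bases and also has a poly(A) signal in its last 50 bases, and the gene is known to make mRNAs of both kinds. The sites are shown because the stem-loop is what SLBP binds. Capitals mark the stem and loop, and 5 flanking bases stand on each side. Hist1h2ab (chr13:23751572-23751587, plus strand), Hist1h2bk (chr13:22036300-22036315, plus strand) and Hist1h4d (chr13:23581950-23581965, plus strand) are replication-dependent H2A, H2B and H4 genes given for comparison.
H2afx: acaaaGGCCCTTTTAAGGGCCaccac
Hist1h2ab: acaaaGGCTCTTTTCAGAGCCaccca
Hist1h2bk: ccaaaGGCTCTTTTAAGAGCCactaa
Hist1h4d: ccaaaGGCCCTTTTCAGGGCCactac

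The coding sequences show how close the variants are. H2afz and H2afv, the genes of H2A.Z.1 and H2A.Z.2, encode proteins of 128 residues that differ at 3, while their coding bases are 79.2% identical. H3f3a and H3f3b encode the same H3.3 protein of 136 residues, with 0 differences, from coding sequences that are 76.7% identical. H3.3 differs at 4 of 136 residues from the replication-dependent H3 of Hist1h3b. H2afj shares 123 of 129 aligned residues with the replication-dependent H2A of Hist1h2ab, H2afx 116 of 130, and H2afz 78 of 125. The coding bases of H2afj are 89.2% identical to those of Hist1h2ab, those of H2afx 81.9% and those of H2afz 60.2%. Residues are counted with the first methionine. Within the H2A.Z and H3.3 pairs the coding bases differ enough for reads to be assigned, but processed pseudogenes exist for several of these genes, and how the authors' counting shared reads among them is uncertain. Whether H2afj shared reads with replication-dependent H2A genes was not tested.

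Levels spanned a wide range. H3f3a was highest, with a mean over the 4 samples of 1212 FPKM, followed by H2afz (912.7 FPKM), H3f3b (557 FPKM), H2afy (494 FPKM), H2afx (303 FPKM), Slbp (159 FPKM), H2afv (108 FPKM), H2afj (44.4 FPKM) and H1fx (0.483 FPKM). Among the 12612 tested genes, H3f3a stood at percentile 98.9 of the mean level, H2afz at 98.6 and H2afj, the lowest of the 8 tested, at 76.9. In this order the samples of H3f3b and H2afy overlapped, as did those of Slbp and H2afv, and no other neighbours did.

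**Figure D1:**
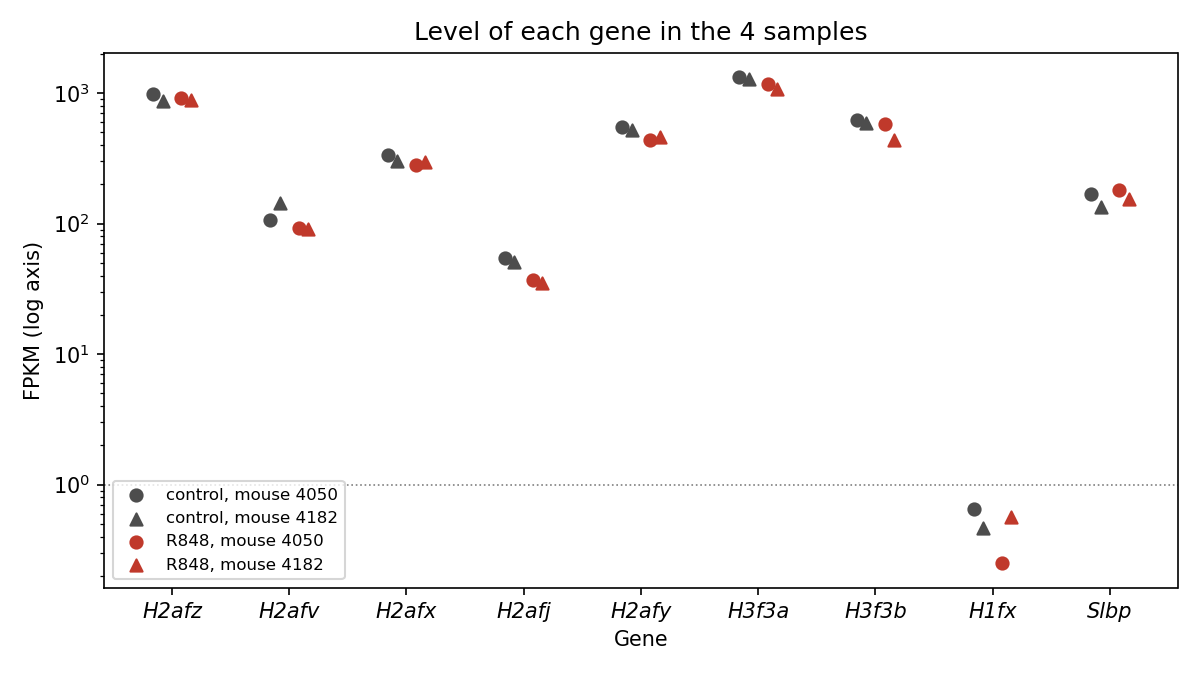
FPKM of each gene on a log axis, with 1 point per sample (grey, control; red, R848; circles, mouse 4050; triangles, mouse 4182). The dotted line is the filter of the test at a mean of 1 FPKM, below which H1fx lies, and the differences between the groups are small beside those between the genes.

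None of the 8 tested genes passed the test of R848 against control. By limma on log2(FPKM + 1), with Benjamini-Hochberg adjustment over all 12612 tested genes at 0.05, 0 of 8 passed, against 1.85% of all tested genes. H2afj alone had an unadjusted p below 0.05, as did 11.5% of all tested genes. With the mouse as a block 0 of 8 passed, against 5.30% of all tested genes. Of the 8, 2 had an unadjusted p below 0.05 with the block, H2afj and H2afv, as did 1944 of the 12612 tested genes. The differences of the 8 were mostly below 0. The median log2 difference of the 8 was -0.24 (-0.19 in mouse 4050, -0.22 in mouse 4182), and that of all tested genes was -0.08. In 6 of the 8, both R848 samples lay below both controls, which held for 28.8% of all tested genes, and the same 6 were lower in both mice, as were 38.8% of all tested genes. The paragraphs below give each gene's values in the order control of mouse 4050, control of mouse 4182, R848 of mouse 4050, R848 of mouse 4182. An interval is the 95% interval of the log2 difference from the limma fit, and a percentage is the R848 mean over the control mean on the linear scale.

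H2afz (chromosome 3, 137864487 to 137866922) was at 978, 864, 923 and 886 FPKM. The R848 samples lay inside the range of the controls. The log2 difference was -0.02 (SE 0.16, interval -0.39 to 0.34, limma adjusted p = 0.979), with -0.08 in mouse 4050 and 0.04 in mouse 4182, and its sign turned under both rescalings of the samples (0.06 and 0.08). The interval covers levels from 76.2% to 127% of control.

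H2afv (chromosome 11, 6427229 to 6444443) was at 106.5, 142.7, 92.8 and 90.9 FPKM. Both R848 samples lay below both controls, and the control of mouse 4182 stood well above the other 3. The R848 mean was 73.7% of the control mean, a log2 difference of -0.42 (SE 0.18, interval -0.85 to 0.01, limma adjusted p = 0.446, unadjusted p = 0.054). The difference was -0.20 in mouse 4050 and -0.64 in mouse 4182. Leaving out the control of mouse 4182 brought it to -0.21. With the mouse as a block the interval was -0.77 to -0.07 and the limma adjusted p = 0.204.

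H2afj (chromosome 6, 136808244 to 136810074), an H2A variant known to accumulate in senescent cells, had the lowest log2 difference of the 8. It was at 54.6, 50.8, 36.75 and 35.3 FPKM, so that the groups were well apart and the mice close together within each. The R848 mean was 68.3% of the control mean (52.7 ± 2.70 against 36.0 ± 1.02 FPKM, SD, n = 2 each). The log2 difference was -0.54 (SE 0.16, interval -0.90 to -0.17), with -0.56 in mouse 4050 and -0.51 in mouse 4182. The unadjusted p was 0.0104 and the limma adjusted p = 0.211. The block gave a limma adjusted p = 0.0874, the smallest over 13 alternatives, in which the difference ranged from -0.59 to -0.45. Its difference stood at percentile 6.49 of all tested genes.

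H2afx (chromosome 9, 44334694 to 44336077), the H2A variant of the DNA damage response, was at 334, 299, 281 and 298 FPKM. Both R848 samples lay below both controls, but by very little in mouse 4182. The log2 difference was -0.13 (SE 0.15, interval -0.48 to 0.23, limma adjusted p = 0.818), with -0.25 in mouse 4050 and -0.01 in mouse 4182.

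H2afy (chromosome 13, 56073619 to 56136361) encodes macroH2A1, and its values join the splice forms that the gene is known to make. It was at 552, 524, 436.5 and 465 FPKM. The groups did not overlap. The R848 mean was 83.7% of the control mean. On the log2 scale this was -0.26 (SE 0.15, interval -0.61 to 0.09), with -0.34 in mouse 4050 and -0.17 in mouse 4182 (limma adjusted p = 0.590).

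For the H3.3 genes, H3f3a (chromosome 1, 180800832 to 180813943) was at 1321, 1284, 1169 and 1074 FPKM. The R848 samples were both lower, at 86.1% of the control mean, with a log2 difference of -0.22 (SE 0.15, interval -0.58 to 0.15, limma adjusted p = 0.676). H3f3b (chromosome 11, 116021912 to 116027962) was at 618, 590, 581 and 440 FPKM. Its R848 sample of mouse 4182 stood apart from the other 3, and the difference was -0.09 in mouse 4050 and -0.42 in mouse 4182. The log2 difference was -0.26 (SE 0.18, interval -0.68 to 0.17, limma adjusted p = 0.672), and it was -0.06 without that sample.

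The linker histone H1fx (H1.10, chromosome 6, 87980421 to 87981637) was close to the floor of the table, at 0.651, 0.465, 0.250 and 0.566 FPKM. The groups overlapped, and the gene was not tested. Its transcripts made up 0.0113%, 0.00791%, 0.00644% and 0.0181% of the summed FPKM of H1fx and 6 replication-dependent H1 genes, which were taken by symbol.

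Slbp (chromosome 5, 33634952 to 33652574) was the member whose log2 difference was above 0. It was at 167, 133, 180 and 156 FPKM. The groups overlapped, while each mouse was higher with R848 (0.11 in mouse 4050, 0.22 in mouse 4182). The log2 difference was 0.17 (SE 0.18, interval -0.25 to 0.58, limma adjusted p = 0.793), and without the control of mouse 4182 it was 0.00.

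**Figure D2:**
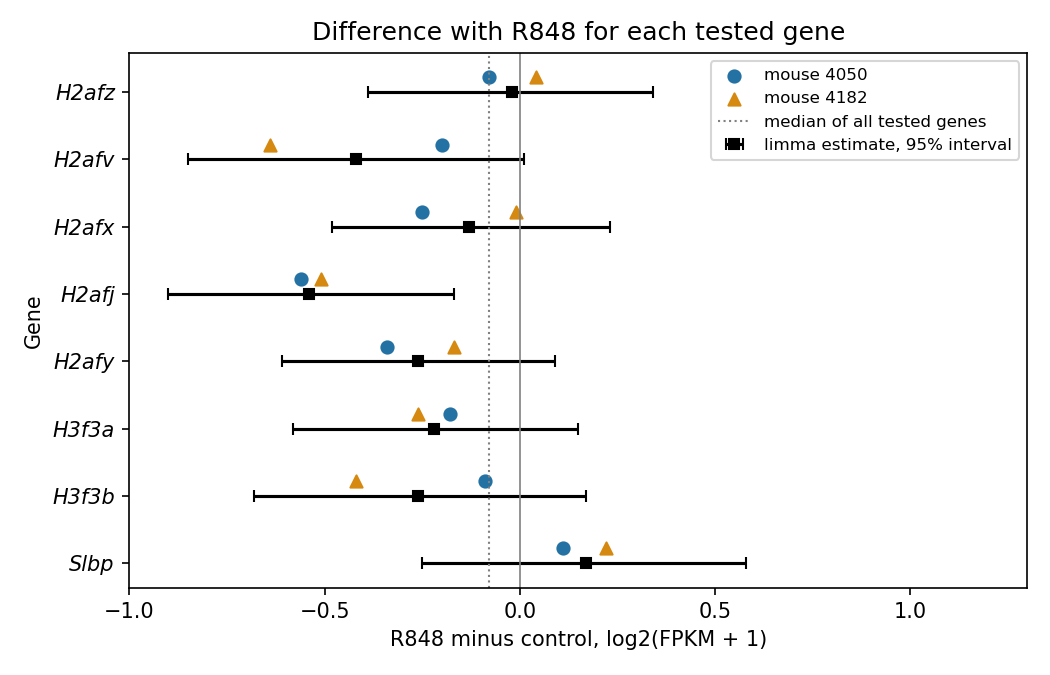
R848 minus control on the log2(FPKM + 1) scale for the 8 tested genes. Squares are limma estimates with 95% intervals, circles and triangles the 2 mice, and the dotted line the median of all tested genes (-0.08). H2afj has the interval farthest below 0, from -0.90 to -0.17, and the sign of H2afz depends on how samples are scaled.

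The replication-dependent histone genes had larger differences, all but 1 of those tested below 0 (Hist2h2ab, at 0.14). Of 61 in the table, 58 were tested, among them the annotated pseudogenes Hist1h2aj and Hist1h2al. The difference between the lists was not itself tested. The median log2 difference of the 58 was -0.74 (-0.68 in mouse 4050, -0.78 in mouse 4182), against -0.26 for the 7 tested variant histones. Of the 58, 56 were lower in both mice, as were 38.8% of all tested genes. In the same number both R848 samples lay below both controls, which held for 28.8% of all tested genes. By limma 11 fell and 0 rose, where 0.381% of all tested genes fell, and with the mouse as a block 40 fell and 0 rose, where 1.90% of all tested genes fell. Hist1h2ac, Hist1h2ae and Hist1h2bp, which had the smallest limma adjusted p (0.0156, 0.0225 and 0.0231), had log2 differences of -1.24, -0.99 and -1.11. The count without the block changed with the libraries and the scaling. It was 0 without either R848 sample in turn (41 members at an unadjusted p below 0.05 by limma without that of mouse 4050, and 37 without that of mouse 4182), 20 without the control of mouse 4050, and 2 after quantile normalization or median log ratio scaling. With the block it was 22 and 37 after these rescalings. Many of these genes are near-identical copies, so the value of a single one is uncertain.

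**Figure D3:**
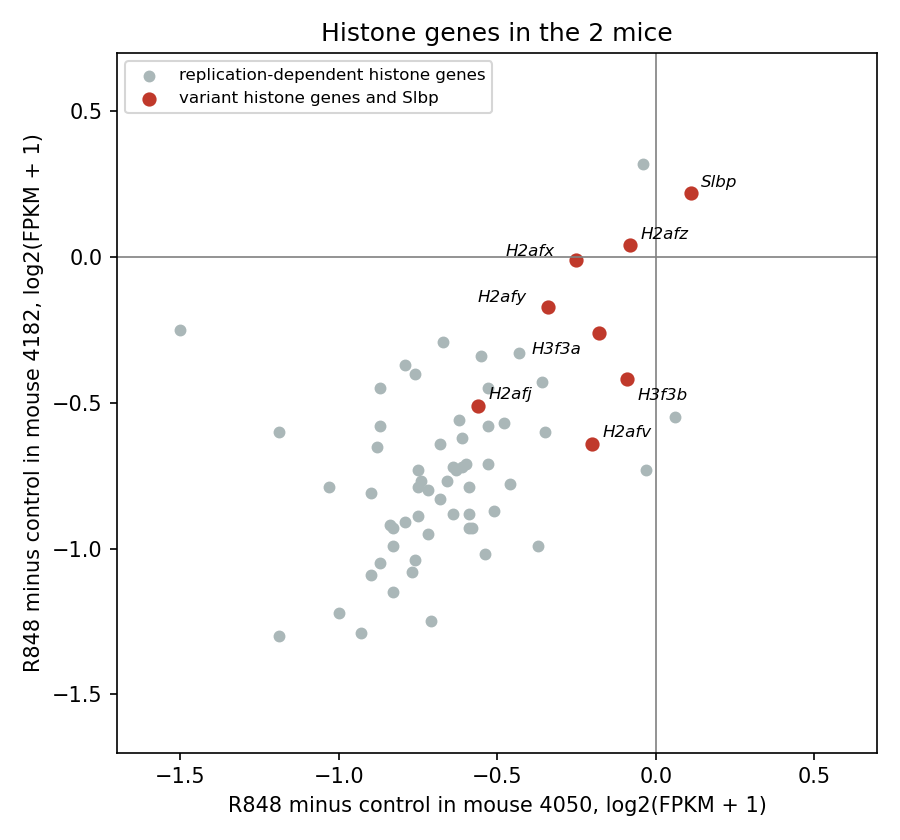
R848 minus control on the log2(FPKM + 1) scale in mouse 4050 (horizontal) and mouse 4182 (vertical). Grey points are the 58 tested replication-dependent histone genes and red points the 7 tested variants and Slbp. Of the 58 grey points, 56 lie below 0 in both mice, as do 38.8% of all tested genes. H2afj and H2afv are the red points that lie among the grey ones.

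Replication-dependent genes with a match in their annotated transcript (38 tested) had a median of -0.73. Those without one (20 tested) had a median of -0.76. Many of their models stop at the end of the coding sequence, and the pseudogenes Hist1h2aj and Hist1h2al, which were not searched, are among them. H2afx, which carries a match, stood at -0.13. H2afj, in which no match was found, stood at -0.54. By class, the medians were -0.76 for H1 (6 tested), -0.86 for H2A (17), -0.74 for H2B (13), -0.66 for H3 (11) and -0.68 for H4 (11).

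Ratios within a sample do not change when all its values are multiplied by 1 factor, as in median log ratio scaling, but quantile normalization can change them. The H3.3 pair made up 15.3% and 16.0% of the summed FPKM of H3 (the pair and 11 replication-dependent genes) in the controls and 21.1% and 20.5% with R848 (mice 4050 and 4182). The 5 H2A variants made up 13.2% and 12.8% of H2A (with 18 replication-dependent genes) in the controls and 18.8% and 19.7% with R848. Both shares were higher with R848 in each mouse, and the groups did not overlap. The 8 variant histones summed to 3965 and 3755 FPKM in the controls and to 88.8% and 87.6% of that with R848, while the 61 replication-dependent genes summed to 67525 and 68417 FPKM and to 63.7% and 59.2% of that with R848.

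On the log2 scale, the ratio of the H3.3 pair to replication-dependent H3 differed by 0.50 between R848 and control (0.56 in mouse 4050, 0.44 in mouse 4182). For the H2A.Z pair against replication-dependent H2A the difference was 0.74 (0.70 and 0.79), for H2afx 0.68 (0.55 and 0.82) and for H2afj 0.26 (0.22 and 0.30). Slbp against all replication-dependent histone genes gave 0.87 (0.76 and 0.98). In each of these ratios both R848 samples lay above both controls, also after quantile normalization, which gave 0.53, 0.77, 0.56, 0.20 and 0.75 in the same order. The ratios are given as values without a test, since the exact permutation test of 2 against 2 cannot give a two-sided p below 0.333. Ribosomal RNA depletion and a kit for poly(A) mRNA are both named in the labels, and mRNAs without a poly(A) tail are captured differently by them, so the level of these shares depends on the capture. It was the same for all 4 samples, as far as the labels say. Whether it recovered such mRNAs equally in each sample was not tested, so the differences in the shares can depend on it too.

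Within the pairs, H3f3b held 31.9% and 31.5% of the H3.3 pair in the controls and 33.2% and 29.1% with R848. The mice went opposite ways as deposited, and the mean log2 ratio of H3f3b to H3f3a differed by -0.04, from -0.18 without the R848 sample of mouse 4050 to 0.10 without that of mouse 4182. After quantile normalization it was -0.21, with -0.02 and -0.39 in the 2 mice, so the opposite directions did not hold. H2afv held 9.82% and 14.2% of the H2A.Z pair in the controls and 9.14% and 9.31% with R848. The log2 ratio of H2afv to H2afz differed by -0.40 (-0.11 in mouse 4050, -0.69 in mouse 4182). That value rested on the control of mouse 4182: it was -0.10 without it and -0.70 without the other control (-0.53 after quantile normalization). The ratio of H2afj to H2afx differed by -0.42, with -0.32 and -0.52 in the 2 mice (-0.36 after quantile normalization). That of H2afy to H2afz differed by -0.23, with -0.26 and -0.21 in the 2 mice (-0.34 after quantile normalization). In both ratios, the R848 samples lay below both controls.

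**Figure D4:**
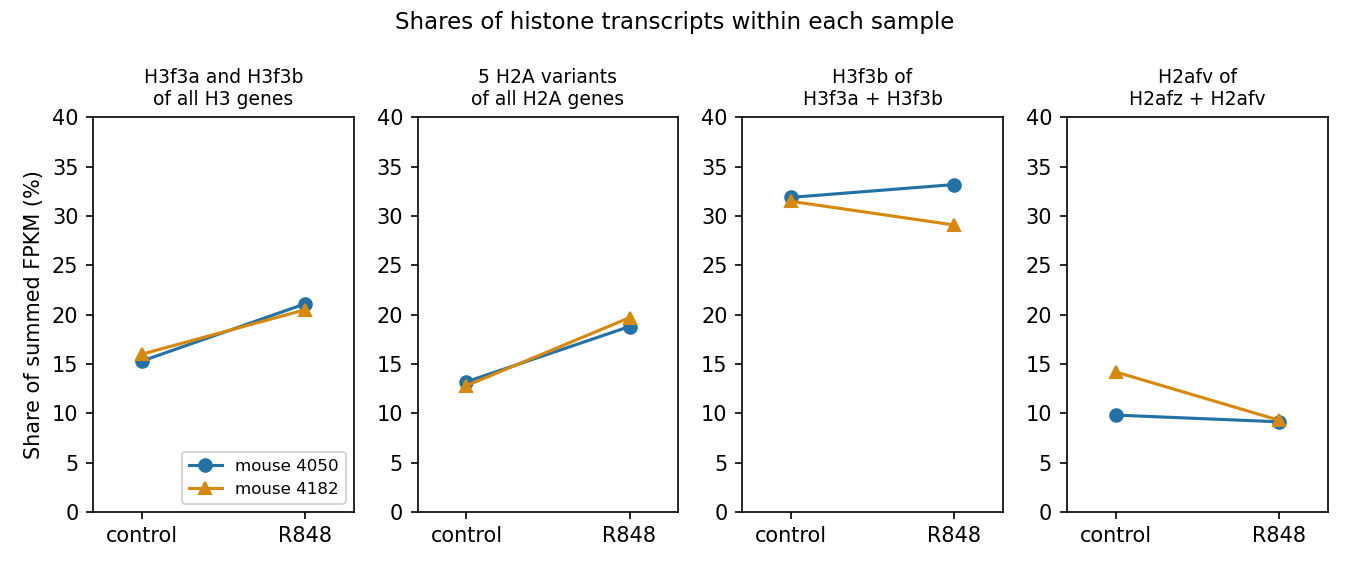
Share of summed FPKM in percent within each sample, from control to R848, for mouse 4050 (circles) and mouse 4182 (triangles). The share of the H3.3 pair in all H3 goes from 15.3% and 16.0% to 21.1% and 20.5% and that of the H2A variants in all H2A from 13.2% and 12.8% to 18.8% and 19.7%, while the split inside the H3.3 pair goes opposite ways in the 2 mice as deposited, which did not hold after quantile normalization.

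Other variant histones were few. Cenpa, the H3 variant of centromeres, was at 122, 140, 122 and 114 FPKM, with -0.15 on the log2 scale (limma adjusted p = 0.790). H2afy2, which encodes macroH2A2, was at 2.21, 3.41, 2.16 and 2.30 FPKM (-0.22, limma adjusted p = 0.804). The other 6 of the 8 found were below the filter, among them H2afy3 and H3f3c, and 3 of the 8 were listed at 0 in every sample.

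The factors that load these histones were measured as lists, and none of their members passed by limma without the block. Of 8 H3.3 chaperones and partners 0 passed and 0 had an unadjusted p below 0.05, with a median of -0.08. Ubn2, a subunit of the HIRA complex, and Atrx, the partner of DAXX, had the smallest p, at -0.44 and -0.35 (limma adjusted p = 0.502 and 0.583). Of 13 genes of the complexes that exchange H2A.Z, 0 passed and 0 had an unadjusted p below 0.05. Their median was -0.08, with Vps72, the H2A.Z chaperone of the SRCAP complex, at -0.22 and Actl6a at 0.22 (limma adjusted p = 0.708 and 0.762). Of 12 replication-coupled and general chaperones 0 passed and 0 had an unadjusted p below 0.05, with Npm1, nucleophosmin, at -0.29 and Chaf1b, a subunit of chromatin assembly factor 1, at 0.33 (limma adjusted p = 0.621 and 0.649). The 4 CENP-A loading genes had 0 passing and 0 at an unadjusted p below 0.05, with Hjurp, the CENP-A chaperone, at -0.41 (limma adjusted p = 0.478). With the mouse as a block 1 of the 4, Hjurp, had an unadjusted p below 0.05 (limma adjusted p = 0.244), as did 1944 of the 12612 tested genes.

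Among 15 genes of histone pre-mRNA processing and decay, where Slbp acts, 0 passed by limma, 1 had an unadjusted p below 0.05 (11.5% of all tested genes did) and 1 rose with the mouse as a block, where 3.40% of all tested genes rose. A count of 1 among 15 is near these shares. The gene was Casp8ap2, which encodes FLASH, a factor of histone gene transcription and 3′ end processing. It was at 7.45, 6.68, 15.1 and 11.3 FPKM, with 0.80 on the log2 scale (SE 0.21, limma adjusted p = 0.154, and 0.0445 with the block). Both R848 samples lay above both controls. Sympk, symplekin, the scaffold of the cleavage complex, was at -0.33 (limma adjusted p = 0.522). Of 14 H2A.X signalling genes 0 passed and 0 had an unadjusted p below 0.05. Their median was 0.04, and the kinase genes Atr and Prkdc were at -0.31 and -0.33 (limma adjusted p = 0.588 and 0.622).

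Replication-dependent histone mRNA is tied to S phase, so 20 proliferation genes were set beside it. None of the 20 was called by limma with or without the block. An unadjusted p below 0.05 was found for 0 without the block and for 3 with it, where 1944 of the 12612 tested genes had one. In both mice 13 were higher, against 1 lower in both. Of all tested genes, 22.1% were higher and 38.8% lower in both mice. The median of the 20 was 0.14 (0.08 in mouse 4050, 0.12 in mouse 4182). Ccne2 and Ccne1, the cyclins E of S phase entry, were at 0.51 and 0.49 (limma adjusted p = 0.463 and 0.536, and 0.0966 and 0.244 with the block).

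The promoters of the variants were read from the RefSeq table on GRCm38.p6, 250 bases before to 50 after the start, where 9 of the 10 genes matched. H2afx had no window there, so its promoter was not searched. Motifs were searched on both strands. CCAAT, the NF-Y box, was found in 6 of the 9 windows (H2afz, H2afv, H2afj, H3f3a, H3f3b and Slbp) and in 37.4% of all 32851 windows. GGGCGG, the GC box, was found in 8 of 9 windows and in 35.7% of all. The E2F sites TTTCGCGC and TTTGGCGC were found in 0 of 9 windows (0.323% and 0.514% of all), TTCNNNGAA, the STAT palindrome, in 0 (8.30% of all) and GAAANNGAA, most of the interferon response element core, in 1, that of Slbp (8.56% of all). A match is a string of letters and not a shown site. The 100 bases before the start are printed for the H2A.Z pair, whose nearly identical proteins come from separate promoters, and for H2afj, with CCAAT or its complement in capitals. They lie at chr3:137864387-137864486 (plus strand, H2afz), chr11:6444444-6444543 (minus strand, H2afv) and chr6:136808148-136808247 (plus strand, H2afj). Each holds 2 CCAAT matches. Of the 9 genes with a window, 6 hold at least 1 match in this stretch, as do 18.9% of all such stretches.
H2afz: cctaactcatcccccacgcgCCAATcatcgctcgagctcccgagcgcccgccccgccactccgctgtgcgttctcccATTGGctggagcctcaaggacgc
H2afv: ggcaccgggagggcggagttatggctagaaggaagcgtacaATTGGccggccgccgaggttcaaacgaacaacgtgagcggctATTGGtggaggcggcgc
H2afj: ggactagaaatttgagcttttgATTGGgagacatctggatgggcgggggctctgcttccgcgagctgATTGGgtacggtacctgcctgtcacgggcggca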

How the data were processed

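The 4 samples, a control and an R848 sample from each of 2 mice, were profiled by RNA sequencing. The authors deposited log2 values that the file name calls FPKM. Their lowest value is 0, and after the log2(value + 1) step was undone the samples summed to between 950530 and 962001, which is close to what TPM gives. The submitters' processing notes name kallisto and mm10. Versions and the annotation are not given in the sources used here. Without counts the depth is unknown, and counting intervals could not be formed.

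Of 28192 rows, 27 with names turned into dates and 91 repeats were dropped (the repeat with the highest mean was kept), which left 28074 symbols. Of these, 12612 with a 4-sample mean of 1 FPKM or more were tested with limma 3.58.1 (R 4.3.3) on log2(FPKM + 1), two-sided, with a trended prior and Benjamini-Hochberg adjustment at 0.05. Residual degrees of freedom were 2, and those of the prior 5.27. The fit was tested on simulated data. The labels give the mouse of each sample, and the mouse pairs control with R848. Their deviations from the group means correlated at 0.289 across genes. Blocking on the mouse was an alternative. It left 1 residual degree of freedom against 11.35 of the prior, so the spread in that fit came mostly from the prior.

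Members and lists were chosen with earlier results of these data known. All members are named, and from every other list up to 3 called genes in each direction with the smallest p, or 2 when none was called. One gene that this rule names is not reported here. H2afy3, H3f3c and the other ratios than those within the pairs were chosen after values were seen, as was the list of replication-dependent histones, taken by symbol. Transcripts, coordinates and coding sequences came from GENCODE M21, read with Biopython 1.88, and figures from matplotlib 3.10.9 in Python 3.11.15. Alternatives were another pseudocount, other filters, 2 rescalings, the block with and without them, another prior and leaving out each sample.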

Additional observations from a re-analysis of the deposited data

How the results depend on the processing

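None of the 8 tested members passed limma under any of the 13 alternatives, with 1 or 2 at an unadjusted p below 0.05 in each. The sign held for 7 of them. H2afz turned to 0.06 with median log ratio scaling and 0.08 with quantile normalization, without and with the replicate block, and ranged from -0.11 to 0.07 when samples were left out. Slbp ranged from 0.00 to 0.33. The median of all tested genes shifted from -0.08 as deposited to -0.04 and 0.00 under the 2 rescalings. Over all genes, 185 were higher and 48 lower by limma. With the mouse as a replicate block there were 429 and 240, with block and median log ratio scaling 510 and 211, and with block and quantile normalization 338 and 111. Without the block, median log ratio scaling gave 92 and 15, quantile normalization 78 and 12, and no filter 0 and 0 (1880 at an unadjusted p below 0.05). Leaving out samples gave 46 to 259 higher and 10 to 136 lower. Replication-dependent histones that fell, 11 by the main test, numbered 40 with the block, 37 and 22 with the block and median log ratio or quantile scaling, 2 and 2 with these scalings alone, 1 with a prior without a trend, 0 with no filter (49 at an unadjusted p below 0.05), and 0 to 20 without 1 sample. Called genes of the other lists numbered 12, with 7 at a filter of 5 FPKM, 0 with no filter (21 at an unadjusted p below 0.05) and 4 to 12 without 1 sample. The cause of these changes was not tested. The block changed no member's call. The planned ratio of H1fx to H1f0 was not run. For the ratios, quantile normalization was added after seeing the data. With 2 mice and 2 residual degrees of freedom (1 with the block), the intervals given above limit what the test can show.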
